A study of Mus musculus with 5 samples.

Results

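Donor-derived epithelium of the mouse trachea, taken 40 days and 56 days after transplantation, was compared by single-cell RNA sequencing in droplets (10x Chromium). The donor cells were basal-like cells made from mouse embryonic stem cells, which the labels call iBCs. A cell was counted as transplant-derived epithelium when it came from a GFP-sorted library, held at least 500 mouse genes and under 20% mitochondrial UMIs (unique molecular identifiers, 1 per captured transcript), and had at least 1 UMI of Epcam, an epithelial adhesion gene, and 0 of Ptprc, the leukocyte gene CD45. This gave 3185 cells, 1627 on day 40 and 1558 on day 56, of 3445 barcodes in the 2 donor libraries and 6832 in all 5. By the same rule the whole series held 5610 epithelial cells.

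The recipients were adult wild type 129X1/S1 mice whose trachea had been injured with polidocanol, a detergent, shortly before the iBCs were given through the trachea. The trachea of each recipient was dissociated with pronase and sorted for live cells (Calcein Blue positive) by GFP. Cells with GFP made the donor-derived library, and cells without it the endogenous library of that recipient. The endogenous cells of a day therefore come from the same injured recipient as the donor-derived cells of that day, with 1048 epithelial cells on day 40 and 779 on day 56. The uninjured control was 1 trachea of the same strain with neither injury nor transplant, sorted on Calcein Blue alone, and gave 598 epithelial cells. Each day is 1 recipient and each group 1 library. No test was therefore made, and the day, the animal and the library cannot be told apart in any difference given here.

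Basal cells are the stem cells of the tracheal epithelium: they lie on the basement membrane, express Krt5 and Trp63, and give rise to secretory cells (club cells, marked by the secretoglobin Scgb1a1) and ciliated cells. Interferon-gamma, a cytokine of activated T and NK cells, acts through transcription factors that include IRF1 and switches on guanylate-binding proteins, antigen presentation by MHC molecules and the chemokines Cxcl9 and Cxcl10, which draw T cells. Type I interferons act through a complex that holds IRF9 and switch on antiviral genes such as the Ifit family.

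Every gene compared of the 2 interferon lists below was lower on day 56. The upstream bases of 4 interferon-induced genes are shown, chosen because their windows held the first motif marked below. They are from RefSeq on GRCm38.p6, as the 250 bases before the annotated start, 5′ to 3′ on the gene's own strand. Capitals mark GAAA and GAAA with any 2 bases between them, a core of the interferon-stimulated response element bound by IRF factors, or TTC and GAA with any 3 bases between them, the core of the gamma-activated site, in either orientation. Cxcl10, on the minus strand, is chr5:92348890-92349139. Gbp5 is chr3:142496684-142496933, Gbp3 is chr3:142559794-142560043 and Ifit3 is chr19:34583279-34583528, all on the plus strand.
Cxcl10: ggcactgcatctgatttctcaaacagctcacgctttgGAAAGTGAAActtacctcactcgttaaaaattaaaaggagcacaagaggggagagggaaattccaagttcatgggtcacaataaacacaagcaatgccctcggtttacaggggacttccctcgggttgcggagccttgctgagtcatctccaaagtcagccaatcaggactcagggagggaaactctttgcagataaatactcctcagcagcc
Gbp5: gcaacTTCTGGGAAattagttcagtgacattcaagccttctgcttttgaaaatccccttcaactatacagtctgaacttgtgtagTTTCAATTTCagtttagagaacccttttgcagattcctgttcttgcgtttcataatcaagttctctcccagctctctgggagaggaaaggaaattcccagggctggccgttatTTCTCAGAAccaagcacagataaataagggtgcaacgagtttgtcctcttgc
Gbp3: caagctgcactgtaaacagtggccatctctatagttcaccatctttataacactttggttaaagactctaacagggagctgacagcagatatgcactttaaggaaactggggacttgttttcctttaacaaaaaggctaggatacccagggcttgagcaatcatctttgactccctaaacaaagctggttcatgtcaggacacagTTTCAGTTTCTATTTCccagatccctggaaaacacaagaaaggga
Ifit3: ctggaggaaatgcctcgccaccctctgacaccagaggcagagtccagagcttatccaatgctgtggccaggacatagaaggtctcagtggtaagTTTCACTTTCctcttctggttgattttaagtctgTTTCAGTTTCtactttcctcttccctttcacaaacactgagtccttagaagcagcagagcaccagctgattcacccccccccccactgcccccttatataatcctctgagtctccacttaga
Counted from the start, the first base of the response element lay at position -213 in Cxcl10, at -165 in Gbp5, at -45 and -39 in Gbp3, where 2 matches overlap, and at -156 and -122 in Ifit3. Gbp5 also held the gamma-activated core at -245 and -52, and the window of another RefSeq start of Gbp3 held 0 matches. Over windows of 250 bases before to 50 after the start, 1131 of 32851 RefSeq windows (3.44%) held the first motif and 2726 (8.30%) the second. A match is a description of letters, and the windows of Cxcl9, Tap1 and Psmb10, also interferon genes, held 0 of either. Those of Ifit2 held 0 of the first. Since the 4 genes shown were picked by their matches, they cannot be set against the shares over all windows.

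The 2 donor libraries were close in depth, genes and mitochondrial UMIs per cell, but differed in Epcam. The median donor-derived epithelial cell had 13055 UMIs and 3373 genes on day 40 and 10757.5 UMIs and 3072.5 genes on day 56, with a median of 3.38% and 4.07% mitochondrial UMIs. The summed epithelial depth was 24801446 and 19942567 UMIs. Of the other donor barcodes, 2 and 8 failed the limits on genes or mitochondrial UMIs and 61 and 174 had 0 UMIs of both Epcam and Ptprc. No barcode was shared between the donor libraries, and each shared at most 2 barcodes with any other library. EGFP, the sorted reporter, had a UMI in 56.9% of cells on day 40 and 47.6% on day 56, or 29.7% and 29.1% after thinning each cell to 5000 UMIs. It was at 0 in all 1048 and 779 endogenous cells, where 3 cells with a UMI would be 0.286% and 0.385%; this limits cells with an EGFP UMI, not cells that express it. Cells with a Ptprc UMI, left out here, numbered 12 and 3 in the donor libraries against 231 and 392 in the endogenous ones.

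Within this epithelium a basal gate took cells with Krt5 at 5 or more per 10000 UMIs, and a secretory gate took cells with Scgb1a1 at 500 or more per 10000. The basal gate held 671 cells on day 40 (41.2%, exact Clopper-Pearson 95% interval 38.8 to 43.7) and 803 on day 56 (51.5%, 49.0 to 54.0). The secretory gate held 564 cells (34.7%, 32.4 to 37.0) and 453 (29.1%, 26.8 to 31.4). Basal cells were thus the larger share on day 56 and secretory cells the smaller, while the endogenous shares differed little between the days, at 42.4% and 41.2% basal and 24.2% and 24.8% secretory. After thinning to 5000 UMIs the donor-derived basal share was 38.4% and 48.5%. All intervals here and below cover counting error only.

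The basal share rested on where the Krt5 limit lay. Krt5 per basal-gate cell was lower on day 56, with a median of 12.4 per 10000 UMIs against 16.5. Cells between 5 and 10 per 10000 numbered 128 on day 40 and 283 on day 56, and cells just below the limit, from 2.5 to 5, numbered 46 and 93. With the limit at 10 per 10000 the 2 days differed by 0.00181 percentage points. The secretory share depended on its limit likewise: with Scgb1a1 at 1000 per 10000 the difference shrank to -1.12 percentage points, and the median Scgb1a1 of gated cells was 1739 per 10000 on day 40 and 2589.5 on day 56. The 2 gates overlapped in only 6 and 10 cells, and 24.5% and 20.03% of cells were in neither.

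Other classes, set by other genes, differed too. Cells with Ccl9 and Spib, both genes of microfold cells, summed to at least 10 per 10000 UMIs made up 239 of the 1627 donor-derived cells on day 40 (14.7%, 13.0 to 16.5) and 28 of 1558 on day 56 (1.80%, 1.197 to 2.59). Among cells in neither gate they were 45.5% on day 40 and 6.41% on day 56. The endogenous shares were 1.15% and 0.899%, and the control had 0 of 598 cells, where 3 counts would be 0.502%. That limit of 10 was chosen after the values were seen, but few cells were near it: 28 and 5 donor-derived cells lay between 5 and 10. Cells with ciliated markers summed to at least 10 per 10000 went the other way, from 68 (4.18%, 3.26 to 5.27) to 126 (8.09%, 6.78 to 9.55), still well under the 23.4% and 25.3% of the endogenous libraries. More cells of day 40 were near that limit: 45 and 22 lay between 5 and 10, and 23 and 11 of those counted between 10 and 20. Of the 68 cells of day 40, 17 were in the basal and 11 in the secretory gate. Without the Ccl9 and Spib cells, the basal share differed by 5.01 percentage points rather than 10.3 and the secretory share by -8.24 rather than -5.59.

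**Figure D1:**
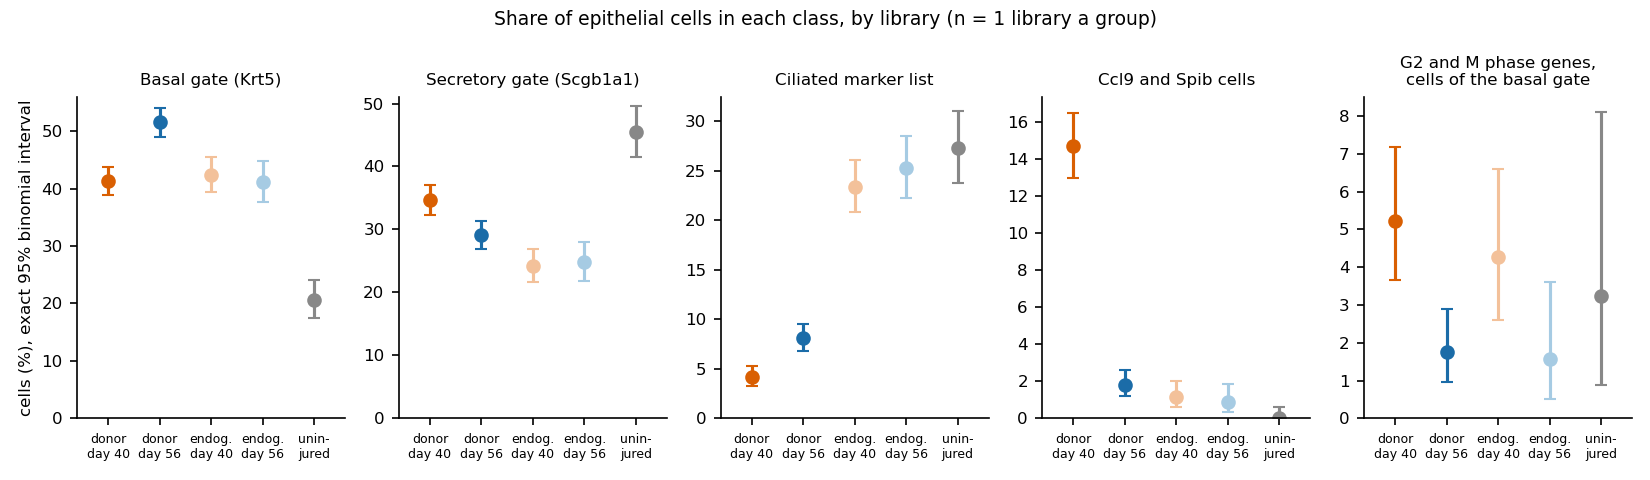
Share of epithelial cells in 5 classes (percent, y axis) in each library, as a point with its exact 95% binomial interval, 1 library a group. Cells with Ccl9 and Spib stand at 14.7% in the donor-derived library of day 40 and at 1.80% or below in the other 4, and ciliated cells are fewer in both donor-derived libraries than in the endogenous and uninjured ones.

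To compare expression, UMI counts were summed over the cells of a library and gate and written as CPM, a gene's count relative to the TMM-scaled size of the sum. Genes with a mean of at least 20 CPM over the 2 days were compared, and a gene is called apart at a 2-fold difference or more. Over all epithelial cells, 95 of 5655 genes (1.68%) were at least 2-fold higher on day 56 and 202 (3.57%) at least 2-fold lower. In the basal gate 66 of 5872 (1.12%) were higher and 128 (2.18%) lower, and in the secretory gate 35 of 4404 (0.795%) were higher and 125 (2.84%) lower. The lower side was thus the larger in each. Without TMM scaling the secretory split was 22 higher and 184 lower, and the median log2 ratio of all genes there was -0.17 rather than 0.02. Ratios in the secretory gate are given relative to that shift. After TMM scaling, Scgb1a1 alone had 162402 CPM in this gate on day 40 and 260597 CPM on day 56. These are not shares of the gate's UMIs, since the scaling factors of the 2 days were 1.24 and 1.08.

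The endogenous libraries of the same recipients differed less between the days. Among all endogenous epithelial cells 0.359% of genes were at least 2-fold higher on day 56 and 0.161% lower. The shares were 0.706% and 0.293% in the endogenous basal gate and 0.512% and 0.209% in the endogenous secretory gate. Of 5386 genes compared in both basal populations, 54 were higher in the donor-derived and 34 in the endogenous cells, with 15 in common (27.8% and 44.1%). On the lower side 79 and 9 genes had 5 in common (6.33% and 55.6%). The endogenous sums are shallower, so their low genes carry more counting error.

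The 2 donor-derived gates, which come from the same libraries, shared many of their lower genes. Of the 4187 genes compared in both, 81 were at least 2-fold lower in the basal and 98 in the secretory gate, with 56 in common (69.1% and 57.1%). On the higher side 35 and 25 genes had 14 in common (40.0% and 56.0%). In the whole epithelium re-weighted to equal shares of UMIs in the gates, 93 of the 95 higher and 180 of the 202 lower genes were still at least 2-fold apart. Leaving out the Ccl9 and Spib cells, an alternative chosen after seeing the data, brought the lower genes from 202 to 122 in all cells, but only from 128 to 122 in the basal and from 125 to 118 in the secretory gate.

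**Figure D2:**
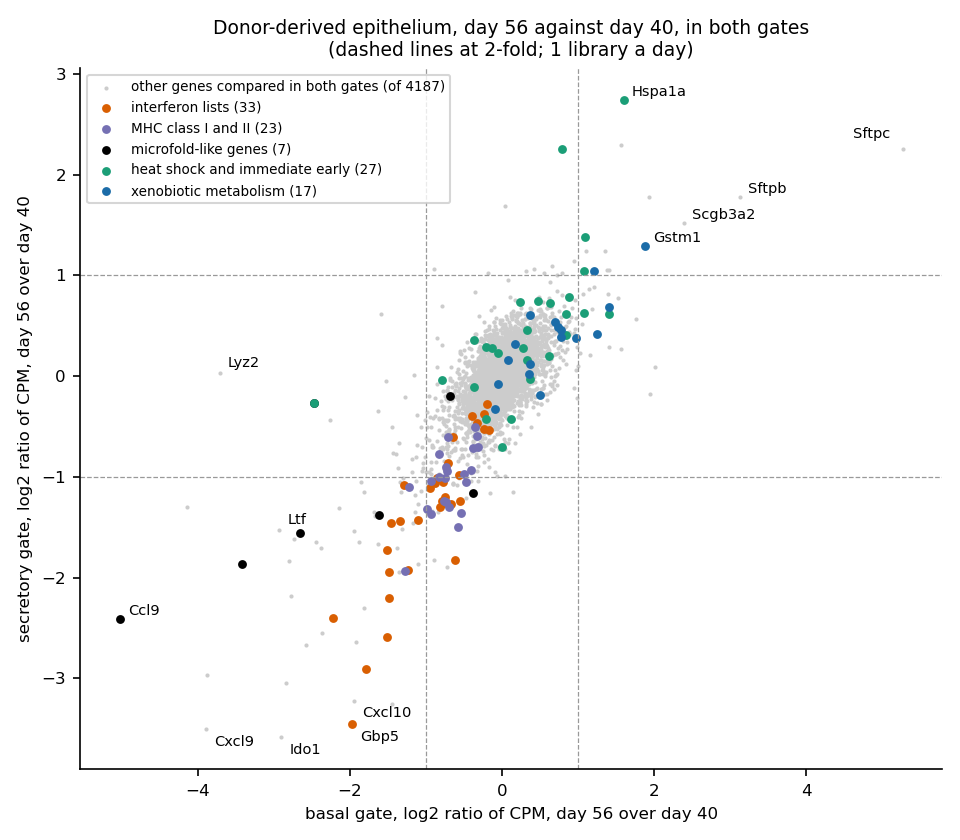
Log2 ratio of CPM, day 56 over day 40, of the donor-derived basal gate (x axis) against the secretory gate (y axis), each point 1 of 4187 genes, with listed genes in colour and dashed lines at 2-fold. Interferon and MHC genes lie below 0 in both gates, whereas Sftpc, Sftpb, Scgb3a2, Gstm1 and Hspa1a lie above 2-fold in both.

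The interferon-gamma genes were lower on day 56 in basal and secretory cells alike. The list of guanylate-binding proteins, immunity-related GTPases and their regulators had 16 genes compared in each gate. In the basal gate 8 were at least 2-fold lower and 0 higher, where 2.18% of all genes were lower, and the median log2 ratio was -1.01 against -0.00 over all genes. In the secretory gate all 16 were at least 2-fold lower, where 2.84% of all genes were, and the median was -1.58 against 0.02. The endogenous medians of the same list were 0.15 and 0.70, the latter over 5 genes compared. Near-identical paralogs, such as members of the Gbp, Tgtp, H2-Q, Gstm and Hspa1 families, may share reads, so the division of counts between them is uncertain.

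Gbp5, which helps assemble inflammasomes and lies at chr3:142493978-142522344, had 108 CPM on day 40 and 9.87 CPM on day 56 in the secretory gate. It was 10.95-fold lower on day 56 (95% interval 8.82 to 13.8), a level close to the endogenous 9.502 CPM of day 56. Gbp4, another guanylate-binding protein, had 170.0 CPM on day 40 and 22.7 CPM on day 56, against 5.82 and 7.23 CPM in the endogenous cells and 0 CPM in the control, and was 7.50-fold lower on day 56 (95% interval 6.49 to 8.71). Both donor-derived values of Gbp4 were above both endogenous ones. Gbp5 in the basal gate had 132 CPM on day 40 and 33.8 CPM on day 56, against 33.7 and 15.0 CPM in the endogenous cells and 0 CPM in the control, so its day 56 level was close to that of the endogenous cells of day 40. Where the control is given as 0 CPM, a count of 0 allows up to 2.51 CPM in its basal gate and 0.788 CPM in its secretory gate.

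Regulators of the pathway were lower too. Irf1, the factor that drives many of these genes, had 131 CPM on day 40 and 48.8 CPM on day 56 in the secretory gate, against 31.0 and 39.9 CPM in the endogenous cells and 13.9 CPM in the control. Socs1, which inhibits the receptor's kinases and is itself induced by interferon-gamma, had 54.5 CPM on day 40 and 14.4 CPM on day 56, against 3.38 and 4.96 CPM in the endogenous cells and 0.263 CPM in the control. In both, day 40 of the donor-derived cells was the highest library and day 56 the next.

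The difference was spread over the cells. The GTPase list made up a median of 17.5 per 10000 UMIs in a donor-derived basal cell on day 40 and 4.74 on day 56, and 17.8 and 3.44 in a secretory cell. The endogenous medians were 1.95 and 2.62 in basal cells and 1.02 and 1.68 in secretory cells, and the control median was 0 in both. The distributions overlapped. The 90th percentile of donor-derived basal cells was 79.2 per 10000 on day 40 and 33.7 on day 56, so that the highest cells of day 56 were above the median cell of day 40. Leaving out the Ccl9 and Spib cells left the counts at 8 of 16 in the basal and 16 of 16 in the secretory gate.

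**Figure D3:**
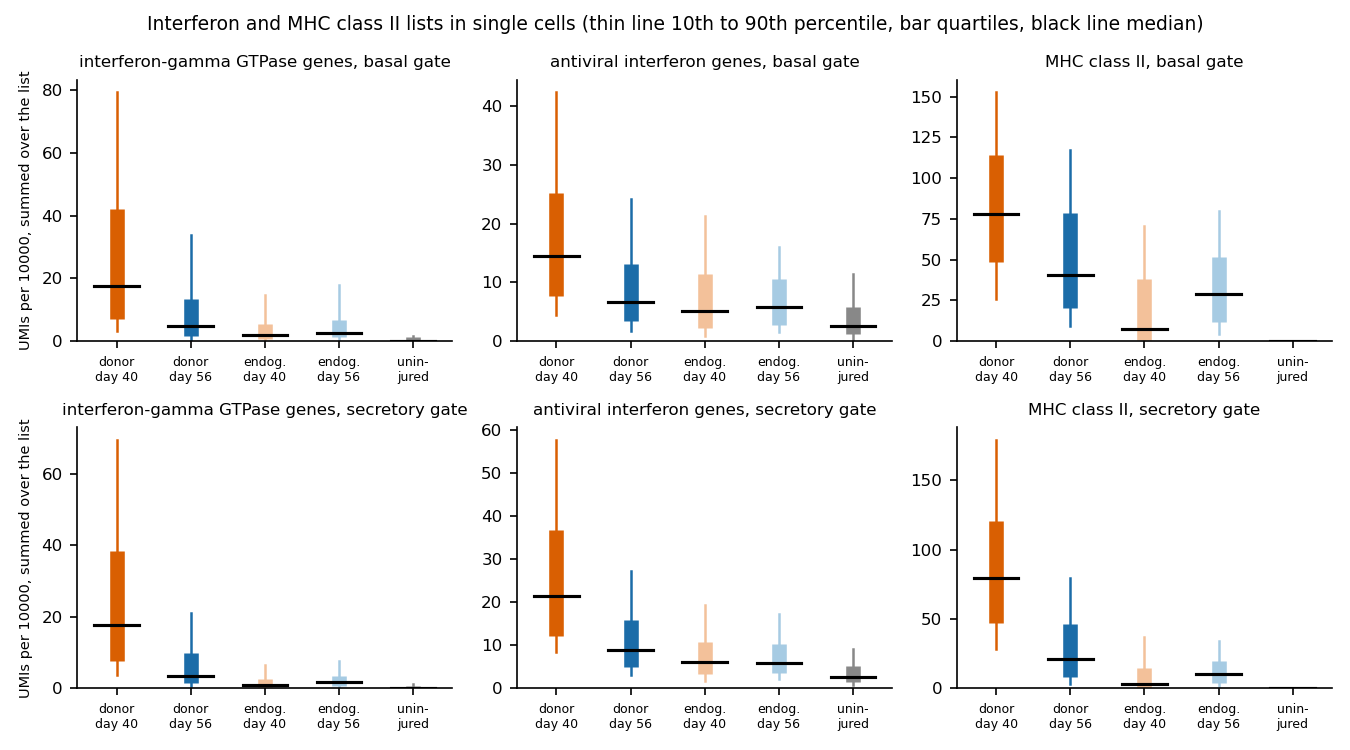
UMIs per 10000 summed over 3 gene lists in single cells (y axis), by library and gate; the black line is the median, the bar the quartiles and the thin line the 10th to 90th percentile. The donor-derived cells of day 40 are highest in all 6 panels, with medians of 17.5 against 4.74 per 10000 on day 56 for the GTPase list in basal cells, and in every panel the 10th to 90th percentiles of the donor-derived days overlap.

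The antiviral genes of the type I response had a smaller difference. All 17 compared in the basal gate and all 21 in the secretory gate had a log2 ratio under 0. The medians were -0.66 and -1.04 (endogenous medians -0.06 and 0.15). At least 2-fold lower were 4 and 11, beside 2.18% and 2.84% of all genes. Ifit3, which binds foreign RNA together with Ifit1, had 170.2 CPM on day 40 and 61.9 CPM on day 56 in the secretory gate, against 26.5 and 22.9 CPM in the endogenous cells and 1.05 CPM in the control, and was 2.75-fold lower on day 56. Isg15, a ubiquitin-like modifier, had 216 CPM on day 40 and 109.6 CPM on day 56 and was 1.97-fold lower on day 56 (95% interval 1.83 to 2.13). Isg15 in the basal gate had 133 CPM on day 40 and 90.3 CPM on day 56, against 53.7 and 63.6 CPM in the endogenous cells and 13.4 CPM in the control. The median donor-derived cell had 14.6 per 10000 UMIs of the list on day 40 and 6.64 on day 56 in the basal gate, and 21.3 and 8.91 in the secretory gate.

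Interferon-induced chemokines and Ido1 were among the largest differences. Cxcl9 (chr5:92321347-92328079) had 276 CPM on day 40 and 24.3 CPM on day 56 in the secretory gate, against 0.376 and 0.620 CPM in the endogenous cells and 0 CPM in the control, and was 11.3-fold lower on day 56 (95% interval 9.88 to 13.1). Its basal-gate level was 356 CPM on day 40 and 23.9 CPM on day 56 and was 14.9-fold lower on day 56 (95% interval 12.9 to 17.2), with a UMI in 17.6% of basal cells on day 40 and 1.74% on day 56, or 14.1% and 1.27% of cells thinned to 5000 UMIs. The endogenous basal values were 0.789 and 9.13 CPM, so the donor-derived level of day 56 stayed above them in both gates. Cxcl10 (chr5:92346638-92348889) had 660.4 CPM on day 40 and 171 CPM on day 56 in the basal gate, against 94.5 and 47.0 CPM in the endogenous cells and 0 CPM in the control, and was 3.86-fold lower on day 56 (95% interval 3.65 to 4.09). In the secretory gate it had 296 CPM on day 40 and 31.8 CPM on day 56, against 14.8 and 10.5 CPM in the endogenous cells and 0 CPM in the control, and was 9.33-fold lower on day 56 (95% interval 8.27 to 10.6). For Cxcl10 too, day 56 lay above both endogenous levels in each gate.

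Ido1 (chr8:24584136-24597009), the enzyme that breaks down tryptophan and dampens T cells, had 409 CPM on day 40 and 34.1 CPM on day 56 in the secretory gate, against 5.64 and 5.16 CPM in the endogenous cells and 0 CPM in the control. It was 12.0-fold lower on day 56 (95% interval 10.7 to 13.5), the largest ratio of any interferon gene named here in that gate. It was found in 68.8% of donor-derived secretory cells on day 40 and 11.9% on day 56 (55.4% and 8.05% after thinning). Its basal-gate level was 117 CPM on day 40 and 15.6 CPM on day 56 and was 7.50-fold lower on day 56 (95% interval 6.27 to 9.04). Serpina3g, a serine protease inhibitor induced by interferon-gamma, had 119 CPM on day 40 and 12.5 CPM on day 56 in the secretory gate and was 9.54-fold lower on day 56 (95% interval 7.86 to 11.7).

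Antigen presentation was lower on day 56 but stayed far above the uninjured level. MHC class II genes summed to 7979.8 CPM on day 40 and 3198 CPM on day 56 in the secretory gate, against 1340.3 and 1636 CPM in the endogenous gate. In the secretory gate 6 of the 7 genes compared were at least 2-fold lower, beside 2.84% of all genes (median -1.36). In the basal gate 1 of 8 was, beside 2.18% of all genes (median -0.64), so that count is no more than a single gene. The endogenous medians were on the other side, at 0.23 and 0.67. H2-Aa, the alpha chain of the I-A molecule, had 1057 CPM on day 40 and 375 CPM on day 56 in the secretory gate, against 204 and 239 CPM in the endogenous cells and 0.263 CPM in the control, and was 2.82-fold lower on day 56 (95% interval 2.71 to 2.93). H2-Aa in the basal gate had 1092 CPM on day 40 and 732 CPM on day 56, against 346 and 549 CPM in the endogenous cells and 0 CPM in the control. Cd74, the invariant chain, had 4858 CPM on day 40 and 1973 CPM on day 56 in the secretory gate, and the control had 1.05 CPM.

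MHC class I and its peptide loading followed with smaller ratios. All 18 genes compared in the basal gate and all 16 in the secretory gate had a log2 ratio under 0, with medians of -0.72 and -0.96 (endogenous 0.27 and 0.18). At least 2-fold lower were 1 of 18 and 6 of 16, beside 2.18% and 2.84% of all genes, so the basal count is no more than a single gene. Psmb10, a subunit of the immunoproteasome that cuts peptides for class I, had 364 CPM on day 40 and 155 CPM on day 56 in the basal gate and was the gene past 2-fold there. Tap1, which carries those peptides into the endoplasmic reticulum, had 189.6 CPM on day 40 and 76.3 CPM on day 56 in the secretory gate and was 2.49-fold lower on day 56 (95% interval 2.28 to 2.71). B2m, the light chain of class I, had 3818 CPM on day 40 and 2693 CPM on day 56 in the basal gate, against 1778.5 and 2264 CPM in the endogenous cells and 136 CPM in the control. For B2m and H2-Aa the donor-derived and endogenous basal cells were therefore closer on day 56 than on day 40.

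Many genes of the NF-κB pathway and the acute phase response were also lower. In the basal gate 6 of the 10 compared were at least 2-fold lower, beside 2.18% of all genes, and 0 higher (median -1.14, endogenous 0.15). Of 8 in the secretory gate 2 were lower, beside 2.84% of all genes (median -0.89). Nfkbia, the inhibitor that NF-κB induces, had 446 CPM on day 40 and 196 CPM on day 56 in the basal gate, against 190.2 and 139.8 CPM in the endogenous cells and 92.1 CPM in the control, and was 2.28-fold lower on day 56 (95% interval 2.15 to 2.41). C3, the central complement component, had 139.5 CPM on day 40 and 55.5 CPM on day 56, and Tnfaip3, a ubiquitin-editing inhibitor of the pathway, had 33.0 CPM on day 40 and 13.4 CPM on day 56. The donor-derived levels of Nfkbia and Tnfaip3 on day 56 lay nearer to the endogenous ones, at 11.6 and 14.5 CPM for Tnfaip3.

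Secreted defence proteins differed in both directions. Of 11 compared in the secretory gate, 3 were at least 2-fold lower and 1 higher, beside 2.84% and 0.795% of all genes. Ltf, the iron-binding lactoferrin, had 4443 CPM on day 40 and 1537 CPM on day 56 there, against 4516 and 5477 CPM in the endogenous cells and 3889 CPM in the control. Reg3g, a lectin that kills Gram-positive bacteria, had 363 CPM on day 40 and 129 CPM on day 56, against 6807 and 6272 CPM in the endogenous cells and 2125 CPM in the control, and was low in both donor-derived libraries. Muc4, a membrane mucin, had 185 CPM on day 40 and 55.1 CPM on day 56 and was 3.36-fold lower on day 56 (95% interval 3.04 to 3.71). Bpifa1, a surfactant-like protein of the airway lining, was the one higher, with 139 CPM on day 40 and 335 CPM on day 56, but both values were a small part of the endogenous 49996 and 19689.5 CPM.

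In some genes with the largest ratios in the basal gate, 1 cell held a sizeable part of the UMIs. Ratios without those cells are not given here. Lyz2, lysozyme, had 95.6 CPM on day 40 and 7.28 CPM on day 56, and 1 cell held 59.9% of its UMIs on day 40. Ltf had 136 CPM on day 40 and 17.8 CPM on day 56, and 1 cell held 21.8% of its UMIs on day 40 and 64.3% on day 56. The secretory cells' Ltf, scaled by the Scgb1a1 found in the basal gate, would give 92.2 and 30.6 CPM there, so the day 56 value does not exceed such an estimate of free RNA. Fabp5, a fatty acid-binding protein, had 167 CPM on day 40 and 9.48 CPM on day 56, with 21.2% of its day 40 UMIs in 1 cell. The other 16 genes of the leukocyte list summed to 1.60 and 1.39 CPM in the donor-derived basal gate, with 7 and 9 of them at 0. In the secretory gate they summed to 6.70 and 0.561 CPM, with 9 and 12 at 0. Ptprc is among these genes and is at 0 by the rule that chose the cells.

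The microfold-like genes were lower over all epithelial cells, where the cells with Ccl9 and Spib were fewer, and within the gates. Microfold cells overlie lymphoid tissue and carry antigen across the epithelium, and Spib is their master transcription factor. Over all epithelial cells 6 of the 9 genes compared were at least 2-fold lower, beside 3.57% of all genes, and 0 higher (median -2.37, endogenous -0.06). Ccl9 (chr11:83572919-83578636), a chemokine, had 712 CPM on day 40 and 78.8 CPM on day 56, against 41.7 and 36.8 CPM in the endogenous cells and 0.149 CPM in the control, and was 9.04-fold lower on day 56 (95% interval 8.59 to 9.51). Spib (chr7:44525993-44532071) had 373 CPM on day 40 and 41.9 CPM on day 56, against 24.6 and 20.2 CPM in the endogenous cells and 2.08 CPM in the control, and was 8.92-fold lower on day 56 (95% interval 8.32 to 9.57). For both genes the donor-derived library of day 40 was the highest of the 5 and that of day 56 the next.

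Other microfold genes were also lower on day 56. Sox8, a transcription factor of mature microfold cells, had 44.8 CPM on day 40 and 4.68 CPM on day 56. Gp2, a microfold receptor for bacterial pili that was listed here with goblet markers, had 70.3 CPM on day 40 and 10.1 CPM on day 56. Ccl20, which draws lymphocytes and dendritic cells through CCR6, had 1358 CPM on day 40 and 234 CPM on day 56 over all cells and was 5.81-fold lower on day 56 (95% interval 5.64 to 5.99). Within the secretory gate Ccl20 had 541 CPM on day 40 and 185 CPM on day 56, against 18.98 and 28.9 CPM in the endogenous cells and 2.10 CPM in the control. Ccl20 in the basal gate had 264 CPM on day 40 and 41.9 CPM on day 56, against 325 and 296 CPM in the endogenous cells and 84.5 CPM in the control, so there day 56 was the lowest of the recipients' libraries. Within each gate 5 of 7 list members compared were at least 2-fold lower, beside 2.18% of all basal-gate and 2.84% of all secretory-gate genes. Without the Ccl9 and Spib cells 3 of 5 were still so in the basal gate, beside 122 of 5869 genes. In the secretory gate only 1 of 5 was, beside 118 of 4407 genes. Ccl9 and Spib are themselves list members and chose the cells left out.

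Proliferation genes were lower in the basal gate on day 56. Of 8 genes of G2 and M phase compared, 6 were at least 2-fold lower and 0 higher (median -1.62). Of 7 S phase genes 3 were lower (median -0.94). Over all genes of that gate 2.18% were lower. Top2a, which untangles DNA before mitosis, had 96.1 CPM on day 40 and 27.2 CPM on day 56, against 48.9 and 34.6 CPM in the endogenous cells and 36.0 CPM in the control, and was 3.54-fold lower on day 56 (95% interval 3.06 to 4.10). Mki67, a marker of cycling cells, had 83.6 CPM on day 40 and 25.2 CPM on day 56, against 49.3 and 27.9 CPM in the endogenous cells and 25.1 CPM in the control. Cells with at least 10 per 10000 UMIs of the G2 and M list were 35 of 671 on day 40 (5.22%, 3.66 to 7.18) and 14 of 803 on day 56 (1.74%, 0.956 to 2.91), or 5.41% and 2.04% after thinning. The endogenous basal shares differed in the same direction, at 4.28% and 1.56%, while their list median was -0.26.

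The basal identity genes differed little, with the keratins on the lower side. Of 19 basal markers compared in the basal gate 1 was at least 2-fold lower, beside 2.18% of all genes, and 0 higher (median -0.18). That gene was Krt17, a keratin of activated and wounded epithelium, with 920.5 CPM on day 40 and 335 CPM on day 56, against 567 and 979 CPM in the endogenous cells and 289 CPM in the control. It was 2.75-fold lower on day 56 (95% interval 2.63 to 2.87) in donor-derived cells and 1.73-fold higher in endogenous ones, and this opposite order was not tested. Krt14, the keratin of injury-responsive basal cells, had 3427 CPM on day 40 and 2031 CPM on day 56, against 489 and 910.2 CPM in the endogenous cells and 9.21 CPM in the control, so it remained above the endogenous and control levels on both days. Trp63, the factor that maintains basal cells, had 183 CPM on day 40 and 237 CPM on day 56, against 335 and 360.2 CPM in the endogenous cells and 289.5 CPM in the control. Krt15 had 4692 CPM on day 40 and 3533 CPM on day 56. Krt5 chose the gate, so its 1886 and 1469 CPM are a description.

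The squamous and hillock genes, which mark flat stratified patches, lay mostly on the lower side on day 56. Over all cells 11 of 12 compared had a log2 ratio under 0 (median -0.57). At least 2-fold lower were 2, beside 3.57% of all genes. The list summed to 11824 CPM on day 40 and 7072 CPM on day 56. Cldn4, a tight junction claudin, had 60.3 CPM on day 40 and 17.01 CPM on day 56 and was 3.54-fold lower on day 56 (95% interval 3.15 to 3.99). Ly6d, which is part of that sum, had 6215 CPM on day 40 and 2993 CPM on day 56. The endogenous cells had 537 and 396 CPM and the control 157 CPM, so Ly6d was high in both donor-derived libraries.

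The secretoglobins were higher on day 56 in the secretory gate, and nearer, as a ratio, to the endogenous levels of the same day. Scgb3a1 (chr11:49663610-49665118), a secretoglobin of the upper airway, had 378 CPM on day 40 and 2251 CPM on day 56 in the secretory gate, against 19038 and 39859 CPM in the endogenous cells and 27149.5 CPM in the control, and was 5.95-fold higher on day 56 (95% interval 5.76 to 6.15). It had a UMI in 61.2% and 73.3% of donor-derived secretory cells (42.3% and 60.9% after thinning). Scgb3a2, a secretoglobin found through the club cell lineage, had 5101 CPM on day 40 and 14659 CPM on day 56, against 41732 and 42042 CPM in the endogenous cells and 41592 CPM in the control, and was 2.87-fold higher on day 56 (95% interval 2.85 to 2.90). Both donor-derived libraries lay under all 3 others for both genes. Endogenous Scgb3a1 was itself at least 2-fold higher on day 56. Scgb1a1 chose the gate, and its 162402 and 260597 CPM, beside the endogenous 288482 and 334021, are a description.

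Not every secretory marker followed. Of 13 compared in the secretory gate, Scgb3a1, Scgb3a2 and Bpifa1 were at least 2-fold higher, while Msln, Nupr1 and Reg3g were at least 2-fold lower. Over all genes of that gate 0.795% were higher and 2.84% lower. Msln, the cell-surface protein mesothelin, had 589 CPM on day 40 and 130.3 CPM on day 56 and was 4.52-fold lower on day 56 (95% interval 4.25 to 4.82). Nupr1, a stress-induced chromatin protein, had 1046 CPM on day 40 and 341 CPM on day 56 and was 3.07-fold lower on day 56 (95% interval 2.95 to 3.19). Cyp2f2, a club cell cytochrome, was level at 5398 and 5492 CPM, under the endogenous 7403.5 and 7029.

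Basal-gate cells also had more of some secretory and surfactant transcripts on day 56. Scgb3a2 had 269 CPM on day 40 and 1412 CPM on day 56 in the basal gate, against 7372 and 7859 CPM in the endogenous cells and 11854.5 CPM in the control, and was 5.26-fold higher on day 56 (95% interval 5.04 to 5.49). It had a UMI in 30.3% of donor-derived basal cells on day 40 and 62.8% on day 56 (19.4% and 51.3% after thinning). Scgb1a1, which is taken here as the tracer of free secretory RNA, was found in 99.4% and 99.6% of basal cells at a median of 5.78 and 8.97 per 10000. If all of that were free RNA, it would bring 106 and 292 CPM of Scgb3a2, under the 269 and 1412 measured. Scgb3a1 in the basal gate, at 7.78 and 7.40 CPM, did not exceed such an estimate of 7.84 and 44.8 CPM.

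Sftpc (chr14:70520949-70524081), the surfactant protein of alveolar type II cells, had the largest ratio on the higher side of all genes named here. It had 1.92 CPM on day 40 and 74.2 CPM on day 56 in the donor-derived basal gate, against 0.197 and 0 CPM in the endogenous cells and 0 CPM in the control, and was 38.7-fold higher on day 56 (95% interval 24.3 to 65.7). A UMI was found in 1.79% of donor-derived basal cells on day 40 and in 19.1% on day 56 (1.35% and 15.2% after thinning). In the secretory gate it had 8.22 CPM on day 40 and 39.4 CPM on day 56, against 0 and 0.620 CPM in the endogenous cells and 0 CPM in the control, and 1 cell held 80.4% of its UMIs on day 40. Sftpc was thus at or near 0 in the 3 other libraries of both gates. Sftpb, a surfactant protein that club cells also make, had 7.25 CPM on day 40 and 63.3 CPM on day 56 in the basal gate, against 25.3 and 21.5 CPM in the endogenous cells and 87.0 CPM in the control. Sftpb in the secretory gate had 37.97 CPM on day 40 and 130.1 CPM on day 56, against 265 and 156 CPM in the endogenous cells and 380.5 CPM in the control. Sftpa1, a surfactant collectin, had 42.4 CPM on day 40 and 189 CPM on day 56 there, against 456 and 386 CPM in the endogenous cells and 778 CPM in the control. Sftpa1 and Sftpb, unlike Sftpc, stayed under the control level.

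Some enzymes of xenobiotic metabolism were higher on day 56. In the basal gate 4 of 18 compared were at least 2-fold higher, beside 1.12% of all genes, and 0 lower (median 0.59, endogenous 0.15). In the secretory gate 2 of 20 were higher, beside 0.795% of all genes (median 0.35). Gstm1, a glutathione transferase, had 231 CPM on day 40 and 853 CPM on day 56 in the basal gate, against 1061 and 1398 CPM in the endogenous cells and 1577 CPM in the control, and was 3.69-fold higher on day 56 (95% interval 3.51 to 3.87). Gstm1 in the secretory gate had 307 CPM on day 40 and 751 CPM on day 56, against 814 and 1051 CPM in the endogenous cells and 1014 CPM in the control. Gsta3, of the same enzyme group, had 156 CPM on day 40 and 416 CPM on day 56 in the basal gate, and Ces1d, a carboxylesterase, had 174 CPM on day 40 and 412 CPM on day 56. The free-RNA estimate for Gstm1 in the basal gate was 6.37 and 14.9 CPM. For Gstm1 both days lay under every endogenous and control value in both gates.

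The ciliated genes were higher over all epithelial cells. Of 11 compared, 10 were at least 2-fold higher, beside 1.68% of all genes, and 0 lower (median 1.72, endogenous 0.29). Foxj1, the factor that switches on motile cilia, had 18.7 CPM on day 40 and 43.6 CPM on day 56, against 129.6 and 151 CPM in the endogenous cells and 150.5 CPM in the control. Dnah5, an outer dynein arm motor, had 21.9 CPM on day 40 and 79.8 CPM on day 56, against 252 and 285 CPM in the endogenous cells and 239 CPM in the control. Ccdc153 had 29.6 CPM on day 40 and 113 CPM on day 56 and was 3.82-fold higher on day 56 (95% interval 3.52 to 4.14). The share of cells that carry the list was higher too, and the level within those cells was not compared.

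Some heat shock and immediate early genes were higher on day 56 in donor-derived and endogenous cells of the same recipients. Hspa1a, an inducible chaperone, had 11.53 CPM on day 40 and 77.2 CPM on day 56 in the secretory gate, against 29.5 and 274 CPM in the endogenous cells and 65.9 CPM in the control. It was 6.70-fold higher on day 56 (95% interval 5.56 to 8.11) in donor-derived and 9.28-fold higher in endogenous cells. Of the heat shock genes 4 of 14 were at least 2-fold higher in the donor-derived secretory gate and 5 of 14 in the endogenous one (medians 0.59 and 0.69). In the basal gate 3 of 15 were higher and 1 lower in donor-derived cells, and 4 of 14 higher in endogenous cells (medians 0.33 and 0.47). Over all genes, 0.795% of donor-derived and 0.512% of endogenous ones were higher in the secretory gate, and 1.12% and 0.706% in the basal gate. The median donor-derived secretory cell had 72.6 per 10000 UMIs of the heat shock list on day 40 and 70.7 on day 56. The median endogenous secretory cell had 30.1 and 44.6. Those per-cell levels are without TMM scaling. With it, the list summed to 6492 and 7337 CPM in the donor-derived secretory gate and to 3396 and 5363 CPM in the endogenous one. Among basal-gate cells Dusp1, a phosphatase induced by growth factors and stress, had 117 CPM on day 40 and 310.2 CPM on day 56, against 95.9 and 254 CPM in the endogenous cells and 85.4 CPM in the control. Ccn2, a matrix protein induced by stretch and YAP, had 46.6 CPM on day 40 and 179 CPM on day 56, against 93.5 and 329.9 CPM in the endogenous cells and 79.5 CPM in the control. Of the immediate early genes 3 of 17 in the donor-derived and 7 of 17 in the endogenous basal gate were at least 2-fold higher. This stood beside the same 1.12% and 0.706% of all genes. The medians were 0.42 and 0.97, and Fosb was the donor-derived gene lower.

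**Figure D4:**
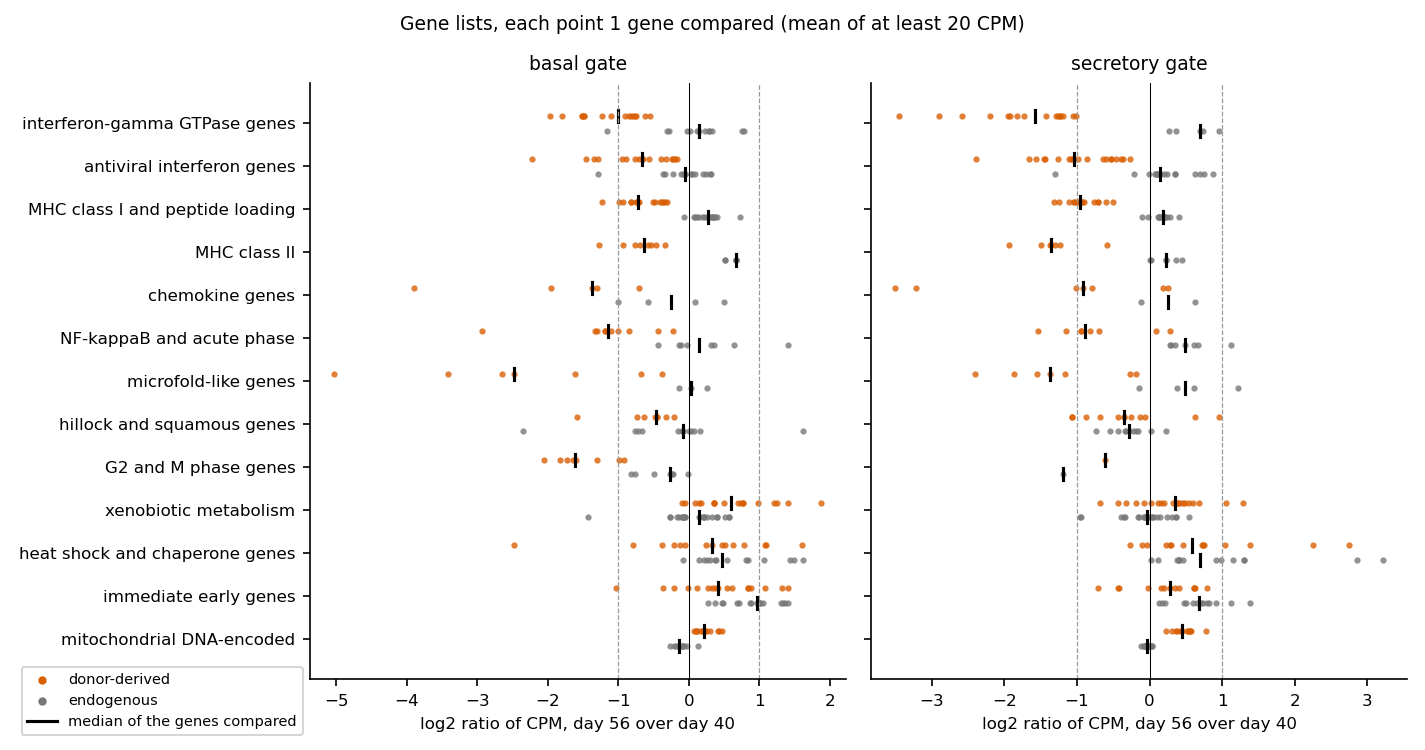
Log2 ratio of CPM, day 56 over day 40 (x axis), of each gene compared in 13 lists (y axis), for donor-derived (orange) and endogenous (grey) cells of the basal and secretory gates, with black bars at the medians and dashed lines at 2-fold. The interferon, MHC and NF-κB lists have medians below 0 in donor-derived cells, at -0.89 for the secretory NF-κB list of which 2 of 8 genes lie above 0, and medians from -0.06 upward in endogenous ones, whereas the heat shock and immediate early lists have medians above 0 in both.

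Of the EGF family genes compared in the basal gate, 2 of 5 were at least 2-fold higher on day 56, beside 1.12% of all genes. Hbegf, an EGF receptor ligand, had 15.8 CPM on day 40 and 36.7 CPM on day 56, against 10.3 and 42.7 CPM in the endogenous cells and 5.02 CPM in the control. Nrg1, a ligand of the related ERBB receptors, had 87.0 CPM on day 40 and 174 CPM on day 56, against 90.4 and 214 CPM in the endogenous cells and 54.4 CPM in the control. The other 3 of the 5 genes compared had a log2 ratio under 0, and the list median was -0.02 (endogenous 0.28, with 2 of 5 at least 2-fold higher, beside 0.706% of all genes). The 13 mitochondrially encoded genes had none past 2-fold, with medians of 0.21 in the basal and 0.45 in the secretory gate (endogenous -0.13 and -0.04).

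Some genes set donor-derived cells apart on both days, and some of these differed little between the days. Cdkn2a, which encodes the cell cycle inhibitors p16 and p19ARF, had 119 CPM on day 40 and 105 CPM on day 56 in the basal gate, against 0 and 4.56 CPM in the endogenous cells and 0 CPM in the control. Cryab, a small heat shock protein, had 231 CPM on day 40 and 226 CPM on day 56 in the secretory gate, against 3.38 and 3.10 CPM in the endogenous cells and 2.36 CPM in the control. Cldn18, a claudin of lung and stomach epithelium, had 149 CPM on day 40 and 67.1 CPM on day 56 in the secretory gate and 0 CPM in the 3 other libraries. EGFP had 73.2 CPM on day 40 and 65.4 CPM on day 56 over all cells. In Cdkn2a, Cryab and EGFP the donor-derived libraries were alike within the 2-fold limit. Cldn18 was past it, at 2.22-fold lower on day 56 (95% interval 2.02 to 2.44). Mmp7, a secreted protease that activates defensins, was also at 0 CPM in the 3 other secretory gates but had 56.9 CPM on day 40 and 5.61 CPM on day 56, and was 10.1-fold lower on day 56 (95% interval 7.60 to 13.8).

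**Figure D5:**
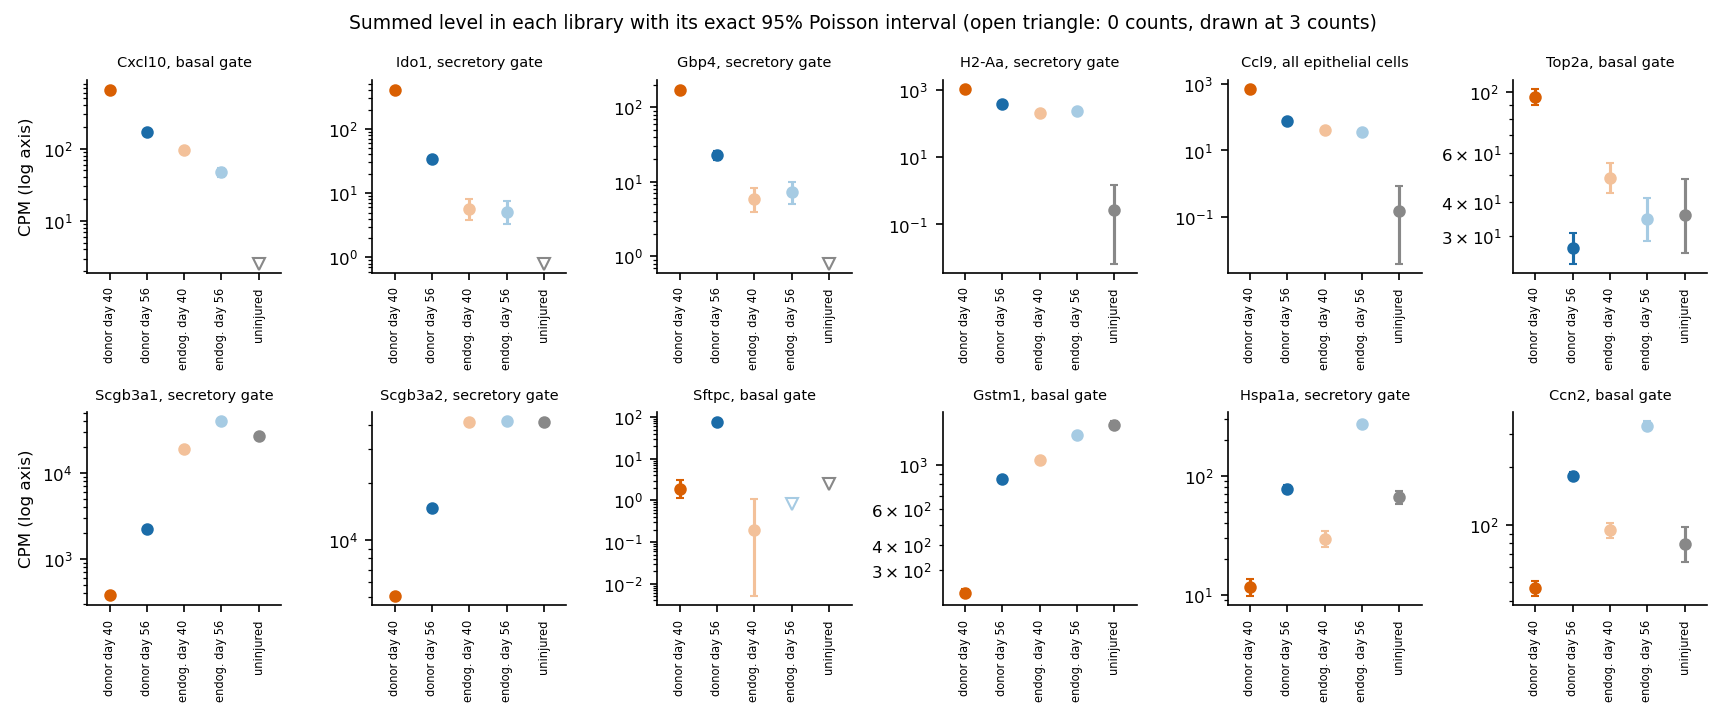
TMM-scaled CPM (log axis) of 12 genes, each in the gate named above its panel, in the 5 libraries with the exact 95% Poisson interval; an open triangle marks 0 counts, drawn at 3 counts. Interferon, MHC and Ccl9 levels are highest in the donor-derived library of day 40, whereas Scgb3a1 and Gstm1 are lowest there, and Hspa1a and Ccn2 are higher on day 56 in both compartments.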

How the data were processed

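Each deposited matrix gives raw UMI counts (whole numbers) of a gene in a barcode, per the file headers, over a joint mouse and human reference to which EGFP and mCherry were added. Seurat, STARsolo and Cell Ranger are named by the submitters' processing notes, with GRCh38 and GRCm38 as builds. The tool and filters behind the barcode calls are not given in the sources used. Symbols were matched by identifier for 30766 of 30907 mouse features. Barcodes over 10% human UMIs (192, all in the control) were left out.

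Counts of all 5 libraries were summed per population and scaled by TMM (values checked against edgeR 4.0.16 in R 4.3.3). A ratio has an exact conditional Poisson 95% interval, a CPM an exact Poisson one, and a sum of 0 counts as 3 in a ratio. These cover counting error only, and no significance test was made with 1 library a day. Free secretory RNA was estimated as a gene's secretory-gate CPM times the Scgb1a1 of the basal gate over that of the secretory gate. It covers RNA of secretory-gate cells only, not of cells in neither gate. For thinned shares each cell was drawn down to 5000 UMIs (seed 1), shallower cells left out (26 and 61 in the donor-derived libraries). GENCODE models on GRCm38 gave the coordinates of genes. Scrublet called 7 of 1700 and 4 of 1735 donor-derived cells (0.412% and 0.231%), too few to rely on, so doublets were left in. Python 3.11.15, numpy 2.4.6, pandas 2.3.3, scipy 1.17.1, scanpy 1.11.5 and matplotlib 3.10.9 were used.

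Named genes are, per population and direction, the 10 largest ratios with at least 50 CPM in the higher library (gene models, mitochondrial, ribosomal protein and gate genes left out), up to 4 members of each of 42 lists that were 2-fold apart, and 18 fixed genes, 132 in all. The text names a subset. Irf1, B2m and other genes named outside this rule were chosen after their values were seen. The cells, gates, members and lists were chosen with earlier results of these data known. Alternatives covered scaling, the CPM minimum, the cell filters, the gate limits, doublets and equal weights of cells.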

Additional observations from a re-analysis of the deposited data

Results flagged for a closer look

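Flagged genes had a mean of at least 20 CPM over the 2 days in both the donor-derived and the endogenous cells of the same recipients. In 4 such genes named by the rule, the 2 sides differed at least 2-fold between the days in opposite directions. Cxcl9 in the basal gate, given above, also ran in opposite directions, but its endogenous level was under that minimum. In each case the difference was not tested, since each side is 1 library a day. Lyz2 had a log2 ratio of -2.04 in all donor-derived epithelial cells and 1.13 in endogenous ones. Lyz1, a close paralog of Lyz2 that the rule did not name, had -2.56 and 4.12 there. Ltf had -2.93 in the donor-derived basal gate and 1.40 in the endogenous one, with 64.3% of the donor-derived UMIs of day 56 in 1 cell. Tnfaip2 had -1.37 in the donor-derived secretory gate and 1.22 in the endogenous one. Bpifa1 had 1.27 in the donor-derived secretory gate and -1.34 in the endogenous one.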

How the results depend on the processing

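The limits are those of 1 recipient a day: no alternative can separate day, animal and library. No paired analysis was possible because each day is 1 library a group and no test was made. Of 106 values of the 8 main results under alternatives, 88 stayed near the main value and 18 moved. In the secretory gate 22 rather than 35 genes were at least 2-fold higher without TMM scaling. With a minimum mean of 50 CPM the higher and lower counts were 35 and 108 in all cells, 26 and 75 in the basal gate and 16 and 76 in the secretory gate. With 5 CPM they were 283 and 422, 121 and 348, and 93 and 284, as fewer or more genes were compared. The basal share differed by 0.00181 percentage points with Krt5 at 10 per 10000, and the secretory share by -1.12 with Scgb1a1 at 1000. With 3 alternatives chosen after seeing the data, the lower genes in all cells numbered 122 and the basal share differed by 5.01 without the Ccl9 and Spib cells, and the higher genes in all cells numbered 62 without ciliated cells, where Fam183b (-0.14) and Foxj1 (-1.16) had the opposite sign, both being markers by which these cells were left out. Leaving out cells with G2 and M phase genes moved no main result. Of 2907 values of named genes, 2548 stayed near the main one, 357 moved and 2 changed sign, and 69, of 40 gene and population pairs, came under 2-fold. Depth limits genes near 20 CPM in the endogenous and control gates most.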
